A study of Mus musculus with 12 samples.

Results

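A set of 9 genes of the machinery that recruits ribosomes to capped mRNA were followed in the cortex of 12 mice, 3 in each of 4 groups. They were Eif4h, its relative Eif4b, the RNA helicases Eif4a1 and Eif4a2, the cap-binding protein gene Eif4e, the scaffold genes Eif4g1, Eif4g2 and Eif4g3, and Eif4ebp2, which encodes an inhibitor of eIF4E. These genes were taken by symbol from the table of normalized counts, in which all 9 were found among 17202 genes. All 9 passed the filter on low values, a mean of at least 10 normalized counts, as did 17111 genes in all. A normalized count is the number of reads counted for a gene in a mouse divided by a factor for that mouse.

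Eif4h lies inside the interval that CD mice have lost from 1 chromosome, from Gtf2i to Fkbp6, so CD mice carry 1 copy of Eif4h and WT mice carry 2. The deletion models Williams-Beuren syndrome, and the line was also crossed with Thy1-YFP mice, on a background that is mostly C57BL/6J. VEH-WT and VEH-CD mice are labelled untreated, while the methods of the study give them drinking water with the solvent DMSO, and VERCUR-WT and VERCUR-CD mice received curcumin and verapamil in their drinking water. By the labels, curcumin was given at 60 and verapamil at 10 mg per kg and day from 8 weeks of age for 1 month, with death at 16 weeks. The methods give a lower dose of verapamil and a younger age at the end. All mice were male. The number of reads counted per mouse lay between 40290000 and 56480000, and the 5 listed markers of excitatory cortical neurons summed to between 277795 and 348916 normalized counts, with none of them at 0. Markers of other cells varied more between mice, those of striatal neurons from 2742 to 16093 and those of oligodendrocytes from 67424 to 197295. In bulk tissue, fewer cells of a type and less RNA per cell cannot be told apart.

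As background, translation of most mRNAs starts when the complex eIF4F binds the 5′ cap. In eIF4F, eIF4E holds the cap, eIF4G is the scaffold to which the other subunits and the ribosome-bound factor eIF3 attach, and eIF4A is the helicase that unwinds structure in the 5′ leader. eIF4B and eIF4H are related RNA-binding proteins that stimulate the helicase, and 4E-BP proteins keep eIF4E from eIF4G until the kinase mTORC1 phosphorylates them. In neurons this step is a known point of control of protein synthesis at synapses.

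On GRCm38, with the GENCODE M21 annotation, Eif4h (ENSMUSG00000040731) occupied chromosome 5 from 134619721 to 134639490 on the minus strand. Eif4b (ENSMUSG00000058655) lay on chromosome 15 from 102073773 to 102097173, and Eif4a2 (ENSMUSG00000022884) on chromosome 16 from 23107444 to 23114136, both on the plus strand. Eif4a1 (ENSMUSG00000059796) lay on chromosome 11 from 69666936 to 69672423 and Eif4e (ENSMUSG00000028156) on chromosome 3 from 138526179 to 138559696. The scaffold genes lay on chromosomes 16 (Eif4g1, ENSMUSG00000045983, 20668313 to 20692884), 7 (Eif4g2, ENSMUSG00000005610, 111067750 to 111083030) and 4 (Eif4g3, ENSMUSG00000028760, 137993022 to 138208508). Eif4ebp2 (ENSMUSG00000020091) lay on chromosome 10 from 61428491 to 61452661. Eif4h was thus the only one of the 9 inside the deleted interval.

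Promoter sequences of 8 of the 9 genes were found among RefSeq promoters of GRCm38.p6, in 10 windows of 300 bases that reach from 250 bases before the start to 50 after it, and Eif4g2 was not matched. The bases before the annotated start are shown for the deleted gene, for its relative and for the helicase gene with the lowest unadjusted p over both treatments among the others. They come from chr5:134639491-134639659 on the minus strand for Eif4h, from chr15:102073523-102073772 on the plus strand for Eif4b and from chr16:23107218-23107443 on the plus strand for Eif4a2. Capitals mark the GC box GGGCGG, read on either strand (CCGCCC on the other), and the palindromic E-box CACGTG.
Eif4h: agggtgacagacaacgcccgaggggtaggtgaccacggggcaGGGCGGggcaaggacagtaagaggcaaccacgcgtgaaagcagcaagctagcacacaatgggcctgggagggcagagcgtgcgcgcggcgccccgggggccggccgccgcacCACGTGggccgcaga
Eif4b: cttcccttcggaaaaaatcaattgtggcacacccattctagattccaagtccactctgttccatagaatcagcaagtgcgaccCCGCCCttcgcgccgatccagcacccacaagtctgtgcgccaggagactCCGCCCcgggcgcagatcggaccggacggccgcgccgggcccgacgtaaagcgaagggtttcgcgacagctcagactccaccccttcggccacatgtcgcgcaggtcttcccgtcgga
Eif4a2: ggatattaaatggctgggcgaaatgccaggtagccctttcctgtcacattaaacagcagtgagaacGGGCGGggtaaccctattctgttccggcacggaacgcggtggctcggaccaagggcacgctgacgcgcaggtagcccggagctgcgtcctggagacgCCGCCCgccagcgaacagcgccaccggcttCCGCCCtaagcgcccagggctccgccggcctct
GC content was 71% in the Eif4h stretch, 62% in that of Eif4b and 65% in that of Eif4a2. A GC box stood in 6 of the 10 windows of these genes and in 35.7% of all 32851 windows, and an E-box stood in 4 of the 10 and in 7.15% of all. Over its whole window Eif4h had 3 GC boxes and 1 E-box, Eif4b had 2 and 0, and Eif4a2 had 4 and 0. The windows of Eif4g3 held neither motif. These are matches of letters only.

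Eif4h, of which CD mice have 1 copy, fell in CD mice to a fold of 0.521 with vehicle and of 0.494 with co-treatment. In VEH-WT mice Eif4h had 18961, 18462 and 18178 normalized counts, and in VEH-CD mice it had 9569, 9446 and 9927. VERCUR-WT mice had 17657, 19195 and 18540, and VERCUR-CD mice had 9278, 8584 and 9499. Every CD mouse lay far below every WT mouse under either treatment, and within a genotype the treated and vehicle groups overlapped.

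The limma test on log2(normalized count + 1) gave a log2 fold change for Eif4h of -0.94 (SE 0.05, Benjamini-Hochberg adjusted p = 1.55e-06) in VEH-CD against VEH-WT, a fold of 0.521. In co-treated mice the same limma test gave -1.02 (SE 0.05, adjusted p = 8.06e-07), a fold of 0.494. Over both treatments, Eif4h averaged 9384 ± 447 in CD mice and 18499 ± 550 in WT mice (SD, n = 6 each), with a log2 fold change of -0.98 (SE 0.04, limma adjusted p = 1.62e-08). An exact two-sided permutation test of the 6 CD against the 6 WT mice gave p = 0.00216, the smallest that this design allows. The mice labelled CD and WT therefore differed in Eif4h as their labels say.

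**Figure D1:**
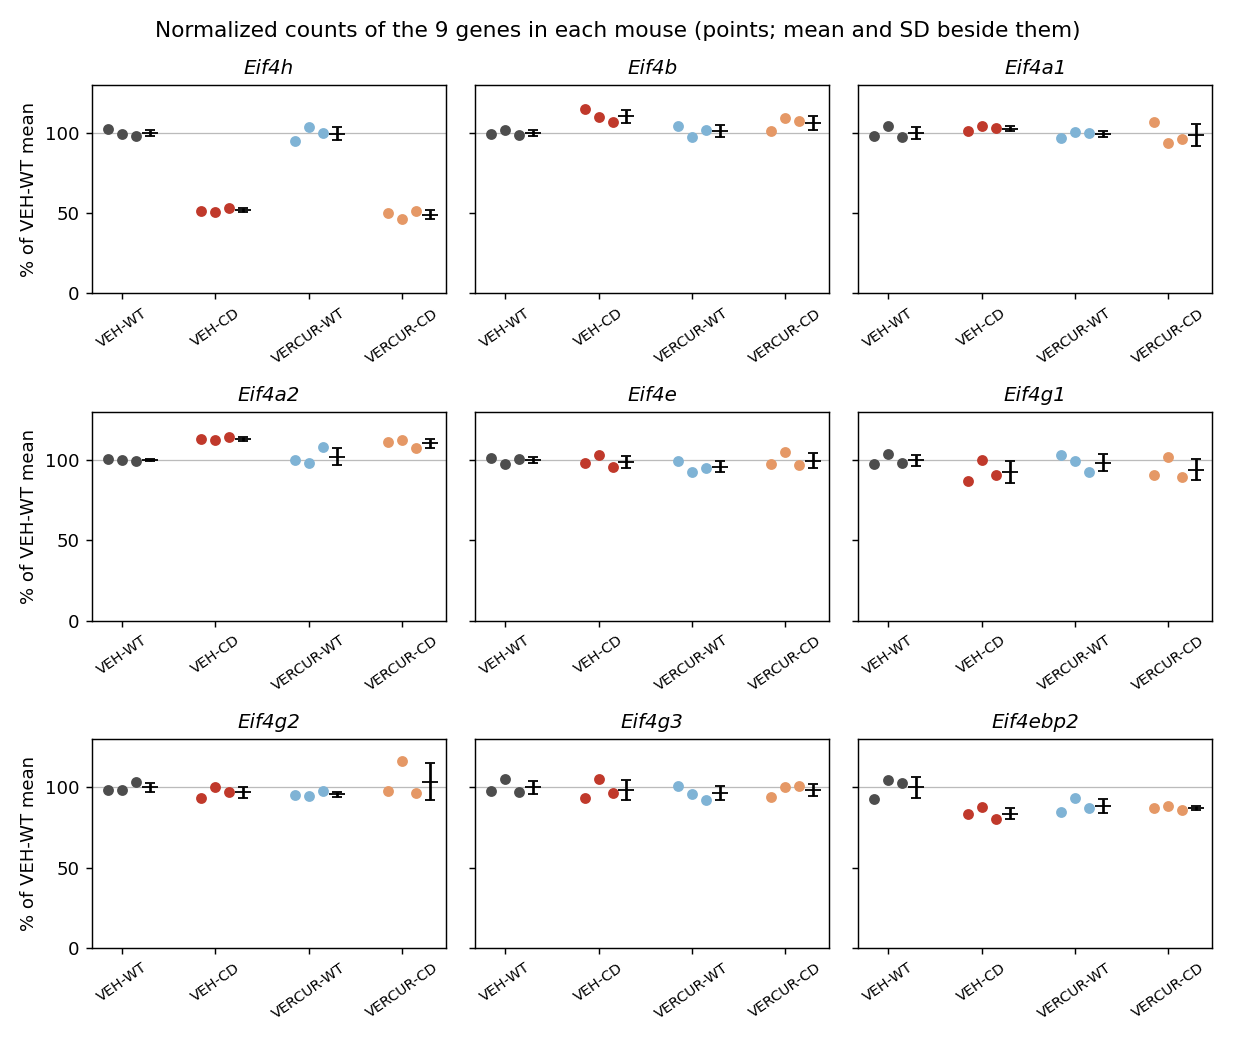
Normalized counts of the 9 genes in each mouse, as a percentage of the VEH-WT mean of that gene (vertical axis, starting at 0), with points for mice and bars for the mean and SD of 3 mice per group. Eif4h lies between 46.3% and 53.6% in the 6 CD mice, and the other 8 genes lie between 80.1% and 117% in all mice.

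Eif4h sat in the middle of the genes lost with it. All 19 genes of the deleted interval in the table, the list by which the study checked its genotypes and thus not independent evidence of direction, passed in CD against WT over both treatments. Their median log2 fold change was -0.98, and over all genes tested the median was -0.0022. Eif4h ranked 10 of 19 from the lowest, between Vps37d at -0.98 (SE 0.08) and Mettl27 at -0.98 (SE 0.08). Fzd9, a Wnt receptor, was the lowest at -1.36 (SE 0.10, limma adjusted p = 1.08e-05), and Lat2, an adaptor of immune cells, was the highest at -0.69 (SE 0.11, limma adjusted p = 0.0169). Lat2 lost its call when any of 4 single mice was left out, as given under the dependence on processing, while Eif4h kept its own in every such fit.

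**Figure D2:**
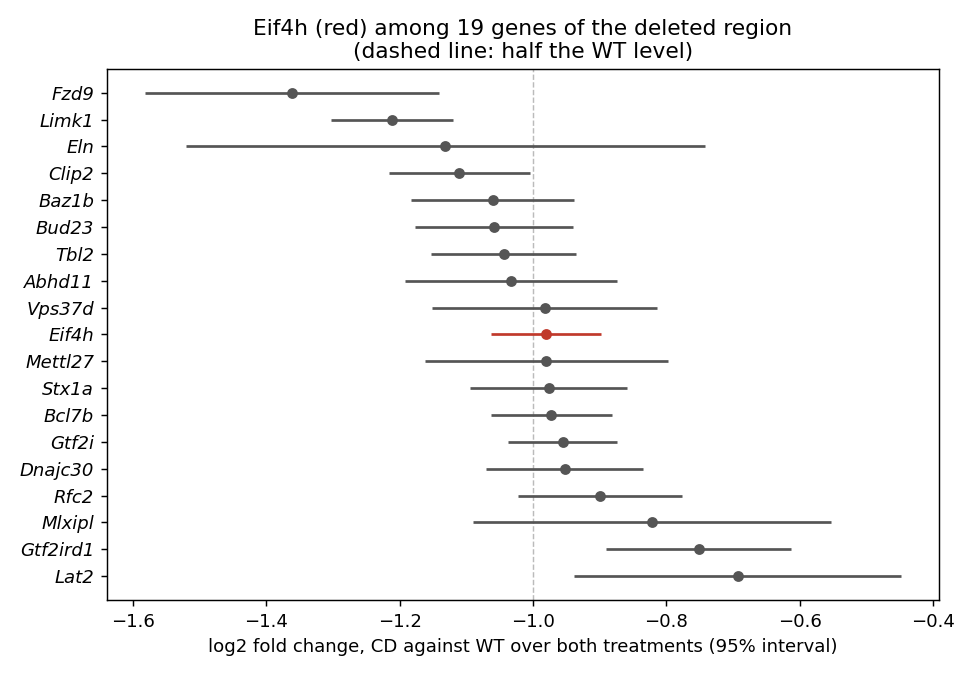
Log2 fold change of CD against WT over both treatments, with 95% intervals, for 19 genes of the deleted interval in order of size, with Eif4h in red and a dashed line where 1 of 2 copies would lie. Eif4h is 10 of 19 from the lowest, at -0.98, with one of the narrower intervals.

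Over the 12 mice, the genes whose log2 values, centred on the VEH-WT mean, stayed closest to those of Eif4h were Bcl7b, Stx1a, Bud23, Gtf2i and Abhd11. Their mean absolute difference from Eif4h was 0.0383, 0.0405, 0.0594, 0.0618 and 0.0632, and the median over all genes tested was 0.541. All 5 lie in the deleted interval. The nearest gene outside it, Zfp970, came at rank 15 with 0.182.

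Of the 9 genes, Eif4h alone passed the test, an adjusted p under 0.05 with a rise or a fall of more than 25%. This was so in VEH-CD against VEH-WT, where 0.257% of all genes tested were called, in VERCUR-CD against VERCUR-WT, where 0.146% were called, and over both treatments, where 0.321% were called. The 44 genes called with vehicle became 24 without VEH-WT replicate 2, VEH-CD replicate 1 or VEH-CD replicate 3, and 28 without VEH-WT replicate 3. Eif4h was called in each of these fits. Without VERCUR-CD replicate 2 there were 71, and the vehicle call of Eif4h was not read out in that fit. Values of the other 8 genes follow by role. At an unadjusted limma p under 0.05 there were 4 of the 9 in VEH-CD against VEH-WT, beside 11.8% of all genes. There were 2 of the 9 in VERCUR-CD against VERCUR-WT, beside 4.10%, and 4 of the 9 over both treatments, beside 9.64%. Eif4h, the deleted gene, is part of each of these counts, so they are not counts of genes free to move either way. Beside it stood Eif4b, Eif4a2 and Eif4ebp2 with vehicle and over both treatments, and only Eif4a2 with co-treatment.

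The values of single mice were also compared by overlap. In VEH-CD against VEH-WT, 4 of the 9 genes had groups that did not overlap, Eif4b and Eif4a2 higher and Eif4h and Eif4ebp2 lower in VEH-CD, beside 20.6% of all genes tested (9.28% higher and 11.4% lower). In VERCUR-CD against VERCUR-WT only Eif4h had this, beside 7.74% of all genes, and over all 6 CD and 6 WT mice again only Eif4h of the 9, beside 1.05%. In the same vehicle comparison the summed immediate early genes, a list of 5 that neuronal activity induces, ran from 46640 to 80084 normalized counts in VEH-WT and from 13162 to 31402 in VEH-CD. All 5 were lower, 4 of them at an unadjusted p under 0.05 and none past the adjusted test. In co-treated mice their sums overlapped, from 24202 to 44092 in VERCUR-WT and from 23784 to 39100 in VERCUR-CD. Their part in the values of the 9 genes was not tested.

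Eif4b, the relative of Eif4h that also stimulates the helicase, had 9441, 9699 and 9390 normalized counts in VEH-WT mice and 10934, 10440 and 10142 in VEH-CD mice. VERCUR-WT mice had 9924, 9252 and 9679, and VERCUR-CD mice had 9650, 10417 and 10249. All 3 VEH-CD mice lay above all VEH-WT mice, while the co-treated groups overlapped through the first VERCUR-CD mouse. The log2 fold change was 0.14 (SE 0.05) with vehicle and 0.07 (SE 0.05) with co-treatment. Over both treatments it was 0.11 (SE 0.04), a difference of 7.71% with a 95% interval from 1.92% to 13.8%, and Eif4b did not pass (limma adjusted p = 0.349).

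Because both cofactors were measured in each mouse, their ratio could be taken within mice. The ratio of Eif4h to Eif4b normalized counts averaged 1.95 ± 0.05 in VEH-WT and 0.920 ± 0.053 in VEH-CD mice (SD, n = 3 each). It was 1.92 ± 0.15 in VERCUR-WT and 0.904 ± 0.072 in VERCUR-CD mice. The highest CD ratio, 0.979, was below the lowest WT ratio, 1.78. The sum of both cofactors per kb of exon was 5467 ± 80 in VEH-WT and 4089 ± 72 in VEH-CD mice. It was 5479 ± 68 in VERCUR-WT and 3905 ± 90 in VERCUR-CD mice, and was lower in both CD groups. Eif4h, the deleted gene, is part of the sum. The sum was taken only with all exons joined as the length, and the share of each gene in it depends on that choice.

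Eif4a2, the helicase paralog known to be abundant in brain, had 25190, 25104 and 24873 normalized counts in VEH-WT mice and 28302, 28156 and 28707 in VEH-CD mice. VERCUR-WT mice had 25136, 24606 and 27089, and VERCUR-CD mice had 27843, 28234 and 26936. The 6 CD mice were above 5 of the 6 WT mice, and the third VERCUR-WT mouse stood just above the third VERCUR-CD mouse. Its log2 fold change was 0.18 (SE 0.05) with vehicle, 0.11 (SE 0.05) with co-treatment and 0.15 (SE 0.03) over both. This last value is 10.7% with a 95% interval from 5.12% to 16.5%, and it did not pass over all genes (unadjusted p = 0.000993, limma adjusted p = 0.159). Eif4a2 shares exon bases with 7 annotated genes, of which 1, Rfc4, is in the table of normalized counts. Rfc4 shares 194 bases, 3.63% of the exon length of Eif4a2, on the opposite strand. The others are snoRNA and miRNA genes on the same strand, with 10 to 178 bases each. The strand setting of the counting is not given in the sources used here.

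Eif4a1, the other helicase paralog, had 10623, 11352 and 10578 normalized counts in VEH-WT and 10966, 11309 and 11201 in VEH-CD mice. VERCUR-WT mice had 10550, 10929 and 10872 and VERCUR-CD mice had 11580, 10170 and 10478. The CD and WT groups overlapped under both treatments, and the difference over both treatments was 1.16% with an interval from -4.71% to 7.40% (limma adjusted p = 0.949). The ratio of Eif4a2 to Eif4a1 counts was 2.31 ± 0.09 in VEH-WT, 2.54 ± 0.05 in VEH-CD, 2.38 ± 0.12 in VERCUR-WT and 2.58 ± 0.19 in VERCUR-CD mice. Eif4a-ps4, by its symbol a pseudogene of eIF4A, was counted at group means from 175 to 227, far below both helicase genes. Reads may be split between such copies, and their likeness in sequence was not examined.

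Eif4e, which binds the cap, had from 4892 to 5063 normalized counts in VEH-WT and from 4787 to 5149 in VEH-CD mice, with 4637 to 4984 in VERCUR-WT and 4842 to 5244 in VERCUR-CD mice. The ranges of all 4 groups overlapped. Its difference between CD and WT over both treatments was 1.44%, with a 95% interval from -4.24% to 7.45%.

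None of the 3 scaffold genes passed. Eif4g1, the main scaffold, had 13173, 14031 and 13307 normalized counts in VEH-WT mice and 11738, 13521 and 12269 in VEH-CD mice. In VERCUR-WT mice it had 13906, 13433 and 12498, and in VERCUR-CD mice 12298, 13736 and 12127. In either treatment 2 of the 3 CD mice were below all WT mice of that treatment and the other lay among them. The difference over both treatments was -5.89% with an interval from -12.5% to 1.26% (limma adjusted p = 0.612).

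Eif4g2 encodes a scaffold that lacks the site for eIF4E. It ranged from 29561 to 31130 normalized counts in VEH-WT, from 28088 to 30223 in VEH-CD, from 28455 to 29377 in VERCUR-WT and from 29001 to 35174 in VERCUR-CD mice. The second VERCUR-CD mouse held that highest value, well above all other mice, and the coefficient of variation (CV) in that group was 11%, the highest of any of the 9 genes. The difference between CD and WT over both treatments was 2.29%, with an interval from -4.90% to 10.0%, and it changed sign without that mouse. Eif4g3, a second scaffold that does bind eIF4E, ranged from 13577 to 15462 over all mice and differed by 0.17% (interval from -6.07% to 6.82%). Within mice the ratio of Eif4g3 to Eif4g1 counts was 1.09 ± 0.01 in VEH-WT, 1.16 ± 0.01 in VEH-CD, 1.07 ± 0.02 in VERCUR-WT and 1.14 ± 0.07 in VERCUR-CD mice.

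Eif4ebp2, the 4E-BP known to predominate in brain, had 3488, 3930 and 3871 normalized counts in VEH-WT mice and 3143, 3294 and 3014 in VEH-CD mice. VERCUR-WT mice had 3179, 3516 and 3285, and VERCUR-CD mice had 3271, 3336 and 3232. VEH-WT mice were the highest of the groups, above all VEH-CD and VERCUR-CD mice, while the other 3 groups overlapped. With vehicle, the log2 fold change was -0.26 (SE 0.06), which did not pass (unadjusted p = 0.00151, limma adjusted p = 0.156). With co-treatment it was -0.02 (SE 0.06). Over both treatments the difference was -9.08% with an interval from -15.0% to -2.76% (limma adjusted p = 0.318). The ratio of Eif4ebp2 to Eif4e counts was 0.753 ± 0.059 in VEH-WT, 0.636 ± 0.006 in VEH-CD, 0.695 ± 0.060 in VERCUR-WT and 0.658 ± 0.019 in VERCUR-CD mice.

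**Figure D3:**
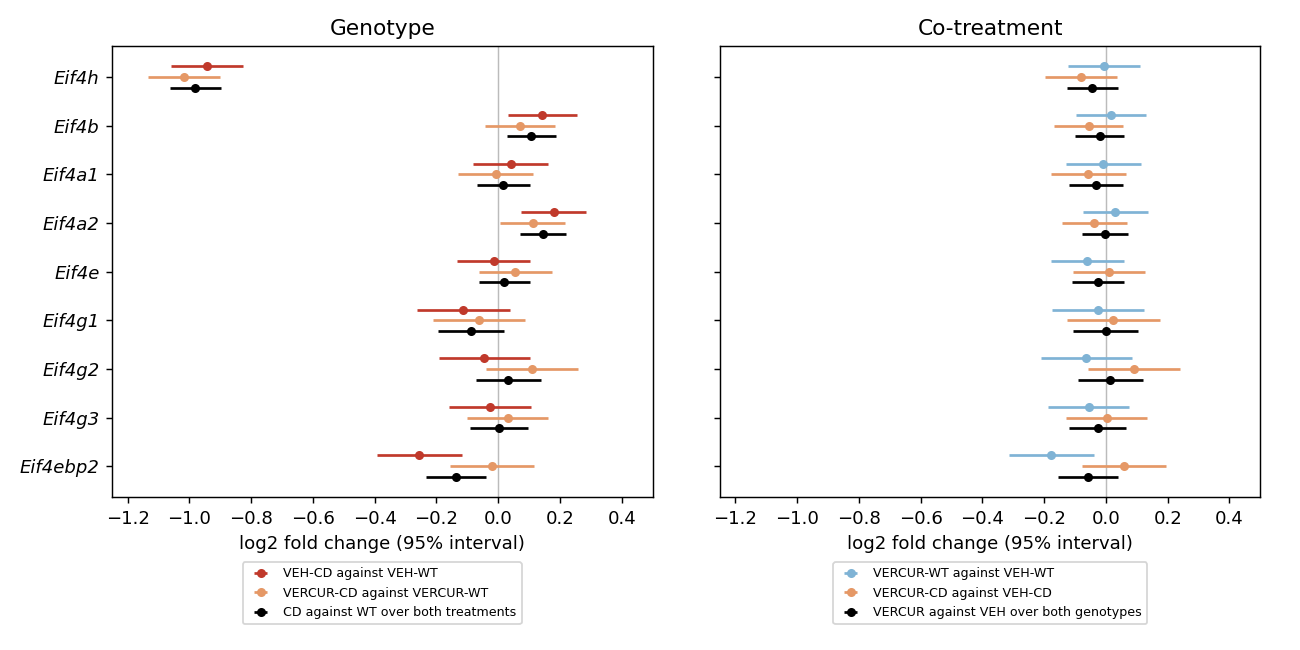
Log2 fold changes of the 9 genes with 95% intervals (horizontal axis), by genotype on the left and by co-treatment on the right, from the limma fit to all 12 mice. The 3 genotype values of Eif4h lie between -1.02 and -0.94, and all other points lie between -0.26 and 0.18.

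None of the 9 genes passed the test for an effect of co-treatment, and no gene of the table did so either (0.00% called in VERCUR-CD against VEH-CD, in VERCUR-WT against VEH-WT, over both genotypes and in the interaction). At an unadjusted p under 0.05 limma gave 605 genes (3.54%) in VERCUR-CD against VEH-CD, none of them among the 9, and 893 genes (5.22%) in VERCUR-WT against VEH-WT, with Eif4ebp2 among them. Over both genotypes it gave 506 genes (2.96%), none of them among the 9, and in the interaction 1035 genes (6.05%), with Eif4ebp2 among them. Eif4h had a log2 fold change of -0.08 (95% interval from -0.20 to 0.03) in VERCUR-CD against VEH-CD and of -0.01 (from -0.12 to 0.11) in VERCUR-WT against VEH-WT. Both intervals included 0. All 19 genes of the deleted interval, Eif4h among them, were below 0 in VERCUR-CD against VEH-CD, with a median of -0.08. There 50.8% of all genes were above 0. None of the 19 passed, and 1 had an unadjusted p under 0.05 by limma. In VERCUR-WT against VEH-WT 11 of them were above 0 and 8 below, and in the interaction all 19 were below 0. The reason for this shared direction was not tested. Beside these values, all 5 oligodendrocyte markers were lower in VERCUR-WT against VEH-WT (log2 fold changes from -0.56 to -0.46) and in VERCUR-CD against VEH-CD (from -0.21 to -0.06). All 5 striatal markers were likewise lower, with medians of -0.73 and -1.16. None of these oligodendrocyte and striatal markers passed or had an unadjusted p under 0.05 in either comparison. All 5 microglia markers were higher in both comparisons, and astrocyte markers were higher for 4 of 5 in WT and 5 of 5 in CD mice. The 5 immediate early genes were all lower in VERCUR-WT against VEH-WT (median -0.74) and all higher in VERCUR-CD against VEH-CD (median 0.56). Of these, 1 immediate early gene in WT and 1 astrocyte marker in CD mice had an unadjusted p under 0.05 by limma. None of these markers passed, and their part in the values of the 9 genes was not tested. The interaction of genotype and treatment for Eif4h was -0.08 (SE 0.08, limma adjusted p = 0.843).

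For Eif4ebp2 the co-treatment values were -0.18 (SE 0.06) in WT mice and 0.06 (SE 0.06) in CD mice, and the interaction was 0.24 (SE 0.09, unadjusted p = 0.0209, limma adjusted p = 0.816). The WT value and the vehicle genotype value of Eif4ebp2 share the VEH-WT mice, which had the highest counts. In VERCUR-WT against VEH-WT, Eif4g2 was the 1 gene of the 9 whose groups did not overlap, lower in VERCUR-WT mice, beside 9.72% of all genes. No gene of the 9 had groups that did not overlap in VERCUR-CD against VEH-CD, beside 8.34% of all genes, or in VERCUR against VEH over both genotypes, beside 0.0760%.

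Per kb of the mean coding transcript, VEH-WT mice held the 9 mRNAs in the order Eif4a2, Eif4h, Eif4a1, Eif4g2, Eif4b, Eif4e, Eif4g3, Eif4g1 and Eif4ebp2. The level was 13072 ± 85 normalized counts per kb for Eif4a2, 7278 ± 156 for Eif4h and 6117 ± 245 for Eif4a1, down to 1044 ± 67 for Eif4ebp2 (SD, n = 3). Only Eif4e (2816 ± 53) and Eif4g3 (2786 ± 119) overlapped as neighbours in this order. In VEH-CD mice Eif4h stood at place 5 with 3788 ± 98, where it overlapped Eif4b at 3889 ± 148, and in VERCUR-CD mice it was again at place 5 with 3581 ± 187 beside Eif4b at 3741 ± 149. The order depends on the length used: per kb of all exons joined, Eif4g2 came above Eif4a1 and Eif4g1 came above Eif4g3 and Eif4e, while Eif4a2 and Eif4h stayed first and second in WT mice. By that length Eif4h lay below Eif4b in CD mice with no overlap, at 1738 ± 45 against 2351 ± 90 in VEH-CD and at 1643 ± 86 against 2262 ± 90 in VERCUR-CD mice. It overlapped Eif4g1 instead, at 1713 ± 125 in VEH-CD and 1742 ± 121 in VERCUR-CD mice, and stood at place 6 in the latter.

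**Figure D4:**
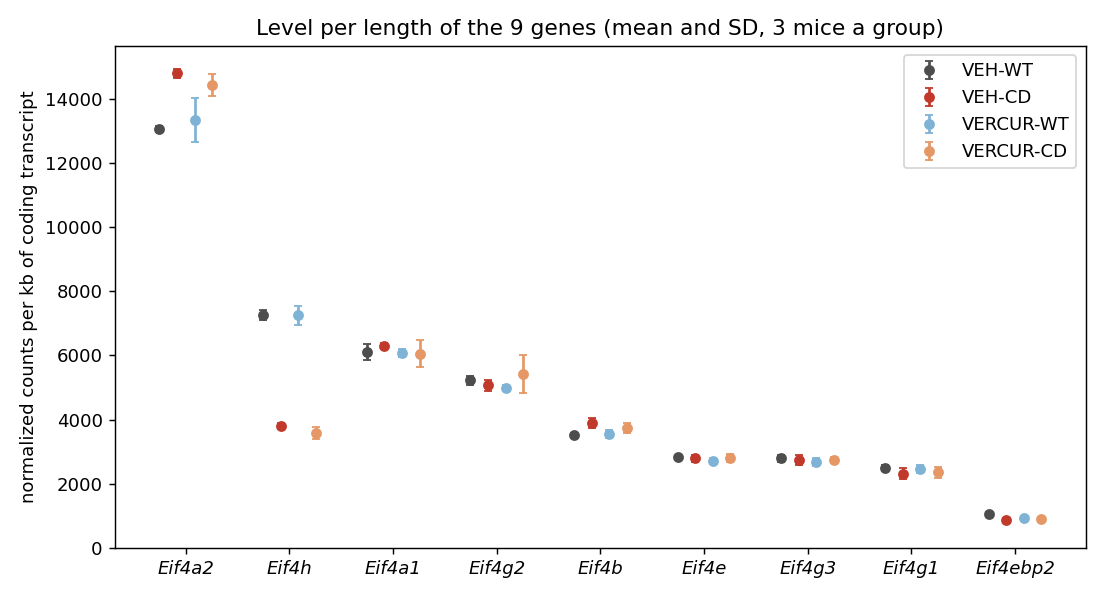
Normalized counts per kb of mean coding transcript (vertical axis, starting at 0) for the 9 genes in the order of VEH-WT, with the mean and SD of 3 mice per group. Eif4h stands second in WT mice, at 7278 in VEH-WT, and by this length its range overlaps that of Eif4b in CD mice, at 3788 in VEH-CD.

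The 9 mRNAs were all abundant, and their spread between mice of a group was mostly small. By mean normalized count they lay above 81.5% (Eif4ebp2) to 98.8% (Eif4g2) of the genes tested. The CV among the 3 mice of a group had a median of 3.82% over the 9 genes and of 8.48% over all genes tested, and was lowest for Eif4a2 in VEH-WT at 0.653%.

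None of the other listed genes of translation initiation and of mTORC1 signalling passed in any of the 7 comparisons. The study, with another model and filter but the same thresholds, lists Eif4ebp1 (higher) and Ddit4 (lower) as deregulated in VEH-CD against VEH-WT. In that comparison it called many more genes than the 44 called here. Of 69 listed genes 68 were tested, and Eif4ebp3 was not analysed here. In VEH-CD against VEH-WT, 41 had values above 0 and 27 below, where 49.3% of all genes were above 0, with a median log2 fold change of 0.05 and 9 genes at an unadjusted p under 0.05 by limma, beside 11.8% of all genes. In VERCUR-CD against VERCUR-WT, 40 were above and 28 below 0, where 51.6% of all genes were above, with a median of 0.03 and 3 genes at an unadjusted p under 0.05, beside 4.10% of all genes. Over both treatments 47 of the 68 were above 0, as were 49.1% of all genes, and 10 had an unadjusted p under 0.05, beside 9.64%, with a median of 0.02. The median over all genes tested was -0.0028 and 0.0044 in these comparisons.

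Among other eIF4 genes, Eif4ebp1, a second 4E-BP, had the highest value over both treatments, 0.28 (SE 0.10, limma adjusted p = 0.374), from group means of 129 ± 14 in VEH-WT, 193 ± 36 in VEH-CD, 181 ± 16 in VERCUR-WT and 181 ± 13 in VERCUR-CD mice (SD, n = 3). Its VEH-WT mice were the lowest of the groups, where those of Eif4ebp2 were the highest. The lowest value of this class was that of Eif4e3, an atypical cap-binding protein, at -0.14 (SE 0.06, limma adjusted p = 0.441).

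The subunits of eIF3, which link eIF4G to the ribosome, had 12 of 14 values above 0 with vehicle (median 0.09) and 7 of 14 with co-treatment (median -0.01). Of all genes tested, 49.3% and 51.6% had values above 0 in these comparisons. Over both treatments 13 of 14 were above 0 (median 0.03), beside 49.1% of all genes, and they ran from -0.03 for Eif3a to 0.13 for Eif3j2. In VERCUR-CD against VEH-CD 12 of 14 were below 0, where 50.8% of all genes were above 0. In VERCUR-WT against VEH-WT 12 of 14 were above 0 (median 0.03), where 49.5% of all genes were above 0. These comparisons share vehicle mice with that of VEH-CD against VEH-WT.

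The class of eIF2, which delivers the initiator tRNA, also held its exchange factor eIF2B and its kinases. Its values over both treatments ran from -0.08 for Eif2b4 to 0.11 for Eif2a. Of these 14 genes, 12 were above 0 over both treatments (median 0.06), 10 with vehicle (median 0.05) and 11 with co-treatment (median 0.04). Of all genes tested, 49.1%, 49.3% and 51.6% were above 0 in these comparisons. The lean above 0 was thus not particular to eIF3. Genes of start codon selection ran from -0.09 for Eif1b to 0.17 for Eif5, the activator of the GTPase of eIF2 (SE 0.05, limma adjusted p = 0.239). Over both treatments, the lowest of the mTORC1 and S6 kinase class was Ddit4, a stress-induced inhibitor of mTORC1, at -0.30 (SE 0.12, limma adjusted p = 0.433). The highest was Rps6, the ribosomal protein that S6 kinase phosphorylates, at 0.07. With vehicle, the comparison in which the study lists Ddit4, the lowest value of the class was -0.56. With co-treatment it was -0.09. Ddit4 averaged 1882 ± 317 in VEH-WT, 1273 ± 181 in VEH-CD, 1467 ± 320 in VERCUR-WT and 1411 ± 181 in VERCUR-CD mice (SD, n = 3).

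**Figure D5:**
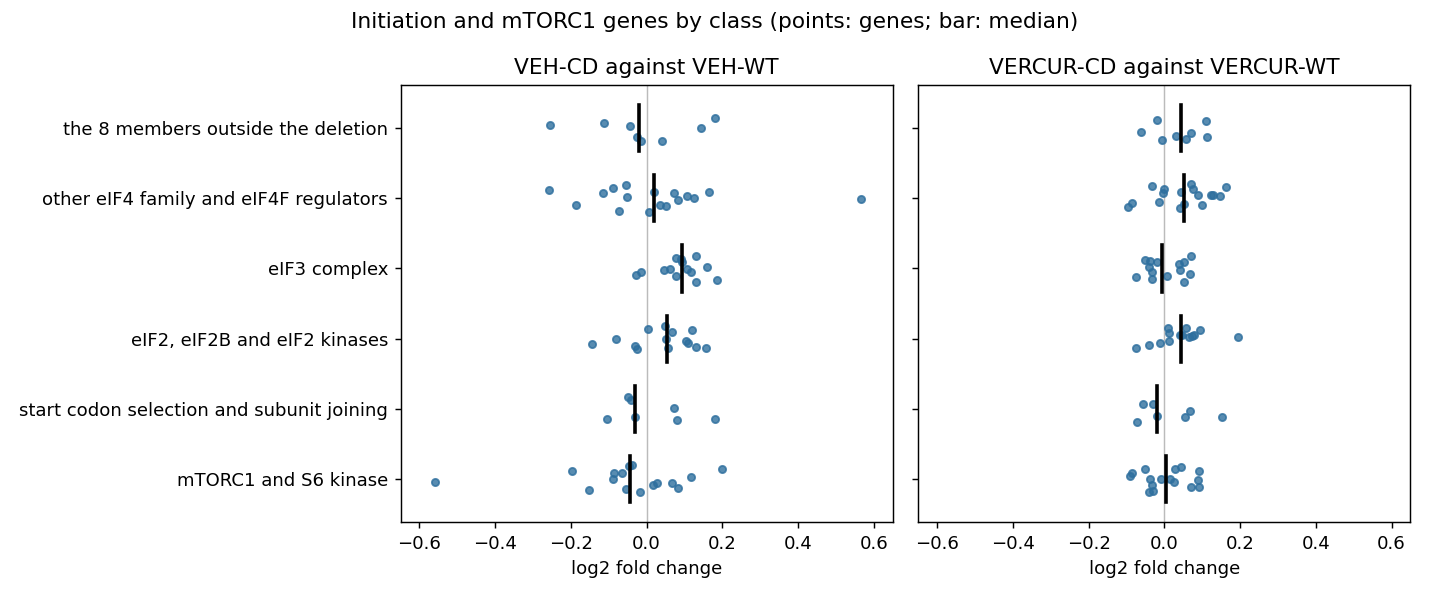
Log2 fold changes of single genes (points, horizontal axis) and class medians (bars) for the 8 genes outside the deletion and for 5 classes of other initiation and mTORC1 genes, in vehicle-treated mice on the left and co-treated mice on the right. The eIF3 points lie mostly to the right of 0 with vehicle, with a median of 0.09, and about 0 with co-treatment. The median of the eIF2 class is 0.05 with vehicle and 0.04 with co-treatment. No point passed the test.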

How the data were processed

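RNA from the cortex of 12 mice, 3 per group, was sequenced by the authors, who mapped the read pairs with STAR 2.5.3a to the GRCm38 genome. The deposited values are normalized counts per gene and mouse, reads that the authors had divided by 1 factor per sample. The deposited table writes these values, normalized by the authors, with decimal commas, and each was handled here as a score, not as a count. The counting program, annotation release, normalization and strand setting are not given in the sources used here. Values below 1000 were whole multiples of 1 step per mouse (tolerance 0.01), which gave a depth of 40290000 to 56480000 reads. Further deposited tables, with values scaled to VEH-WT for genes the authors selected, were not used and hold none of the 9 genes.

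The model, limma 3.58.1 under R 4.3.3, took log2(normalized count + 1) over the 17111 of 17202 genes with a mean of at least 10, with 4 group means, all 12 mice and an intensity trend. Two-sided p-values were adjusted by Benjamini-Hochberg over all genes in each of 7 comparisons. A gene passed with an adjusted p under 0.05 and a rise or fall of more than 25%, or with the adjusted p alone for the interaction. The log2 fold changes are on the scale with a pseudocount of 1. The test was checked on simulated data. The exact permutation test enumerated all splits of the 12 mice. Mice were taken as replicates. The limma p-values set a difference against the spread between mice, pooled over the 4 groups and moderated over all genes. Gene positions and lengths are from GENCODE M21, in which 17181 IDs were found.

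The 9 genes and the gene lists were chosen with earlier results of these data known. Named beside the 9 genes were the highest and lowest gene of each initiation class and of the deleted interval over both treatments, the neighbours of Eif4h there, and the 5 genes nearest to Eif4h with the nearest one outside the interval. Eif4a-ps4, Pabpc1 and genes named as markers or by overlap were chosen after their values were seen. As alternatives, the pseudocount was set to 0.1 or 5, the filter on low values was dropped or raised to 50, and quantile normalization, median centring, only the groups compared, no trend, the replicate number as a block, no fold threshold and the omission of each mouse were tried.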

Additional observations from a re-analysis of the deposited data

Results flagged for a closer look

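The effect of co-treatment on Eif4ebp2 was -0.18 on the log2 scale in WT mice and 0.058 in CD mice. It is listed because all 3 VERCUR-WT mice lay below the VEH-WT mean while all 3 VERCUR-CD mice lay above the VEH-CD mean. The difference itself, the limma interaction, was 0.24 (unadjusted p = 0.0209, adjusted p = 0.816), so it did not pass over all genes. Of the genes tested, 8.10% showed the same opposite movement of every mouse. Groups of 3 mice were not tested for single outlying mice.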

How the results depend on the processing

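Over 755 recomputed values of 40 results, 743 stayed the same, as counts or in direction and side of the threshold. Of the rest, 8 changed sign and 4 lost their call. The total includes counts of 0 in comparisons where no gene of the table passed, and values of deleted genes. Such values had little room to change. The count of the 9 genes called and the count of 0 for the initiation list were the same in every alternative run. For Eif4h, the log2 fold change ran from -0.96 to -0.92 with vehicle (limma adjusted p from 1.46e-06 to 7.29e-05), from -1.05 to -0.97 with co-treatment (7.57e-07 to 0.00124) and from -0.996 to -0.958 over both. Its 6 against 6 difference ran from -0.997 to -0.955 with exact permutation p = 0.00433 when 1 mouse was left out, the smallest then possible.

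Leaving out single mice turned the sign of 3 small values of CD against WT over both treatments, which ran from -0.011 to 0.036 for Eif4a1 (-0.011 without VERCUR-CD replicate 1), from -0.012 to 0.058 for Eif4g2 (-0.012 without VERCUR-CD replicate 2) and from -0.022 to 0.021 for Eif4g3, in 6 of these fits. Lat2 stayed lower at -0.74 to -0.63 but had adjusted p from 0.0554 to 0.0624 without VEH-WT replicate 2, VEH-CD replicate 1, VERCUR-WT replicate 1 or VERCUR-WT replicate 3. Eif4a2 kept its direction, from 0.13 to 0.17, with adjusted p from 0.0844 to 0.411, Eif4b ran from 0.09 to 0.12 (0.239 to 0.645) and Eif4ebp2 from -0.16 to -0.12 (0.187 to 0.645).

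Replicate numbers did not pair the mice: deviations of same-numbered mice correlated between -0.347 and 0.267, and 1 of 12 mice correlated best with its own number. With the replicate number as a block, Eif4h had -0.98 over both treatments (limma adjusted p = 5.77e-07), 57 genes in place of 65 passed at the adjusted p over all genes, and no call on the 9 genes changed. The planned edgeR and DESeq2 tests on recovered reads were left out, because the values, written with decimal commas, were handled as scores. The steps of the values would have allowed whole reads to be recovered. Comparisons that use all 4 groups have no fit of only the groups compared. Each of the 9 genes had at least 3014 normalized counts in every mouse.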

Other observations

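Pabpc1 is given here after its values were seen. Eif5 was named above as the highest gene of its class, and its group means follow. Pabpc1, the poly(A)-binding protein that contacts eIF4G, had 9188, 9123 and 9632 normalized counts in VEH-WT and 10114, 10298 and 10904 in VEH-CD mice. VERCUR-WT mice had 9505, 9947 and 10076, and VERCUR-CD mice had 10686, 11035 and 10948. All 6 CD mice lay above all 6 WT mice, which held for 1 of the 68 listed initiation genes, and 0.573% of all genes had CD mice higher in this way. The log2 fold change was 0.16 (SE 0.04, unadjusted p = 0.000772) and did not pass (limma adjusted p = 0.133). Eif5 averaged 10141 ± 570 in VEH-WT, 11478 ± 397 in VEH-CD, 10359 ± 388 in VERCUR-WT and 11529 ± 873 in VERCUR-CD mice (SD, n = 3).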
